A study of Mus musculus with 18 samples.

Results

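Collagen chains and the matrix proteins that bind them were followed through the stomach, duodenum and submandibular gland of Car6-/- and wild-type mice. The members were all probes whose gene symbol in the platform annotation has the form of a collagen chain name (Col, a number, a and a number), together with Dpt, Lum, Dcn, Bgn, Sparc, Mgp, Eln, Fbln1 and Igfbp5. They comprised 72 of the 25697 probes of the array and 46 genes, of which 37 were collagens and 9 were other matrix proteins. The rule also names Fbn1 and Fn1, for which the annotation lists no probe, so these 2 genes were not analysed here. The rule goes by gene name.

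The arrays were Illumina bead arrays, on which each probe's brightness (its signal, in arbitrary linear units) reports the abundance of a transcript. There were 18 arrays in 6 groups of 3: Car6-/- stomach, Car6-/- duodenum and Car6-/- submandibular gland, and the wild-type stomach, duodenum and submandibular gland. All mice were female C57BL/6 mice aged 2 months, 3 of each genotype. Car6 encodes carbonic anhydrase VI, the form of the enzyme that is secreted, and the labels name no other allele and no treatment.

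Collagens are secreted proteins whose chains wind around each other into a stiff helix. Fibrillar collagens form the tensile fibres of connective tissue, collagen IV forms the sheet-like network of basement membranes under epithelia and around muscle cells and vessels, and the smaller families link these structures to each other or to cells. Small proteoglycans such as decorin and lumican coat collagen fibrils and limit their width, elastic fibre proteins give recoil, and matricellular proteins such as Sparc and Igfbp5 regulate cells from within the matrix. In the wall of the gut most of this matrix is made by fibroblasts and smooth muscle cells of the muscular coat, whereas a salivary gland holds little smooth muscle and much secretory epithelium.

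Between 10214 and 11441 probes were detected on the stomach arrays, 9648 to 11808 on the duodenal arrays and 7868 to 9613 on those of the submandibular gland, where detected means a deposited detection p-value under 0.01. Correlations between the arrays of a group, on the log2 of the deposited signals before normalization, ran from 0.964 to 0.994, with the lowest between wild-type stomach arrays. Car6 itself (probe ILMN_1257323) gave 51.0 to 63.6 in the Car6-/- submandibular gland, where it was detected on 0 of 3 arrays, and 106.5 to 158 in the wild-type submandibular gland, where it was detected on 3 of 3, without overlap. It was detected on no array of the stomach or the duodenum. Each tissue carried its own markers: all 12 gastric gland genes were detected on every stomach array, 9 of 11 enterocyte genes on every duodenal array and 8 to 11 of 11 salivary genes on the submandibular arrays. The gut tissues also shared markers. Gastric gland genes were detected in the wild-type duodenum (10 to 12 of 12), with summed signals of 153557 to 177899, against 200413 to 272794 in the wild-type stomach. In the Car6-/- duodenum 8 to 10 were detected (37537 to 123570), and every stomach array had 5 enterocyte genes detected. The duodenal arrays also held pancreatic acinar genes, with summed signals of 283006 to 362313 in Car6-/- and 250166 to 378059 in wild-type mice. The wild-type stomach array of replicate 3 stood apart in its tissue markers: the summed signal of 12 pancreatic acinar genes was 143375 there, against 35429 to 45374 on the other 5 stomach arrays. In the bulk tissue measured here, fewer cells of a type and less RNA per cell cannot be told apart.

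Of the 46 member genes, 18 were detected on no array, and all 18 were collagens. Among the 11 fibrillar collagen genes 7 were undetected throughout: Col2a1, Col5a2, Col5a3, Col11a1, Col11a2, Col24a1 and Col27a1. The cartilage collagen Col10a1, the Col9a1, Col9a2 and Col9a3 chains that decorate cartilage fibrils, and Col6a6, Col8a2, Col13a1, Col19a1, Col25a1, Col26a1 and Col28a1 were the other 11. A probe that is not detected bounds the transcript from above and does not show that it is absent. The 9 other matrix proteins and all 6 collagen IV chains were each detected on at least 3 arrays. After a filter that asked for detection on 3 or more arrays of the fit, 27 members could be tested for genotype in the stomach, 23 in the duodenum and 20 in the submandibular gland, and 28 could be tested between tissues over all 18 arrays. Counts of members in the comparisons are over these brighter genes.

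Col4a1 and Col4a2, which encode the chains of the most widespread basement membrane collagen, are neighbours that start on opposite strands. Their promoter windows in the RefSeq table (build GRCm38.p6), each 250 bases before and 50 bases from the start on, are shown because both genes are measured and the windows overlap. The Col4a1 window is chr8:11312777-11313076 on the minus strand and the Col4a2 window is chr8:11312555-11312854 on the plus strand. Both are printed 5′ to 3′ on their own strand, and capitals mark the 78 bases that the windows share, each in the other's reverse complement.
Col4a1: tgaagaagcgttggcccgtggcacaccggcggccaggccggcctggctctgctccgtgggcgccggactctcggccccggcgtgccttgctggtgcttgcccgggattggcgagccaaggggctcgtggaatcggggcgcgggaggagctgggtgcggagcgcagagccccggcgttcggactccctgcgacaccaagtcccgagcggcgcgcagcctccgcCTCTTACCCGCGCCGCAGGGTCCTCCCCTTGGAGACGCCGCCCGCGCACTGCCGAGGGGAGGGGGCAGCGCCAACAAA
Col4a2: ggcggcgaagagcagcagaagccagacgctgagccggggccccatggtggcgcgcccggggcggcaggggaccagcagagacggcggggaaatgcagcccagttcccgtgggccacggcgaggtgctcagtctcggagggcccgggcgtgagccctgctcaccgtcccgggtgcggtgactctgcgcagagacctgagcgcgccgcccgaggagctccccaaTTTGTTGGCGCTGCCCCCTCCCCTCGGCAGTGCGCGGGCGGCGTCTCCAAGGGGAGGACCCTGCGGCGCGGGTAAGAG
The annotated starts of both genes lie 21 bases apart. The motif GGGCGG was found on either strand of 35.7% of all 32851 promoter windows of the table, and in those of 13 of the 21 tested members that have a window, Col4a1 and Col4a2 among them. CCAAT, also searched on both strands, was found in 37.4% of all windows and in those of 8 of these 21 members, again with both genes. The X-linked pair Col4a5 and Col4a6 also start on opposite strands, but 1343 bases apart, and their windows share no base. A match describes these letters only.

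Mean signals of Col4a1 and Col4a2 fell in the same order in both genotypes, from stomach to duodenum to submandibular gland. Col4a1 gave 2620, 3464 and 2192 in the Car6-/- stomach and 2595, 2049 and 1698 in the wild-type stomach, 1398, 1772 and 1275 in the Car6-/- duodenum and 954, 1558 and 1618 in the wild-type duodenum, and 543, 465 and 659 in the Car6-/- submandibular gland and 507, 272 and 584 in the wild-type submandibular gland (replicates 1, 2 and 3, as in all lists of values here). Col4a2 gave 1494, 2303 and 1807 in the Car6-/- stomach and 1687, 1426 and 1031 in the wild-type stomach, 846, 918 and 889.8 in the Car6-/- duodenum and 479.5, 779.9 and 1083 in the wild-type duodenum, and 323, 286 and 478 in the Car6-/- submandibular gland and 339.5, 179 and 411 in the wild-type submandibular gland. Both genes were brightest on the Car6-/- stomach array of replicate 2 and dimmest on the wild-type submandibular array of replicate 2, and every stomach array lay above every submandibular array for both. Within a group the order of arrays could differ: in the Car6-/- stomach replicate 3 was dimmest for Col4a1 and replicate 1 for Col4a2. The 18 points share the brightness of their array, and no coefficient is given for them.

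**Figure D1:**
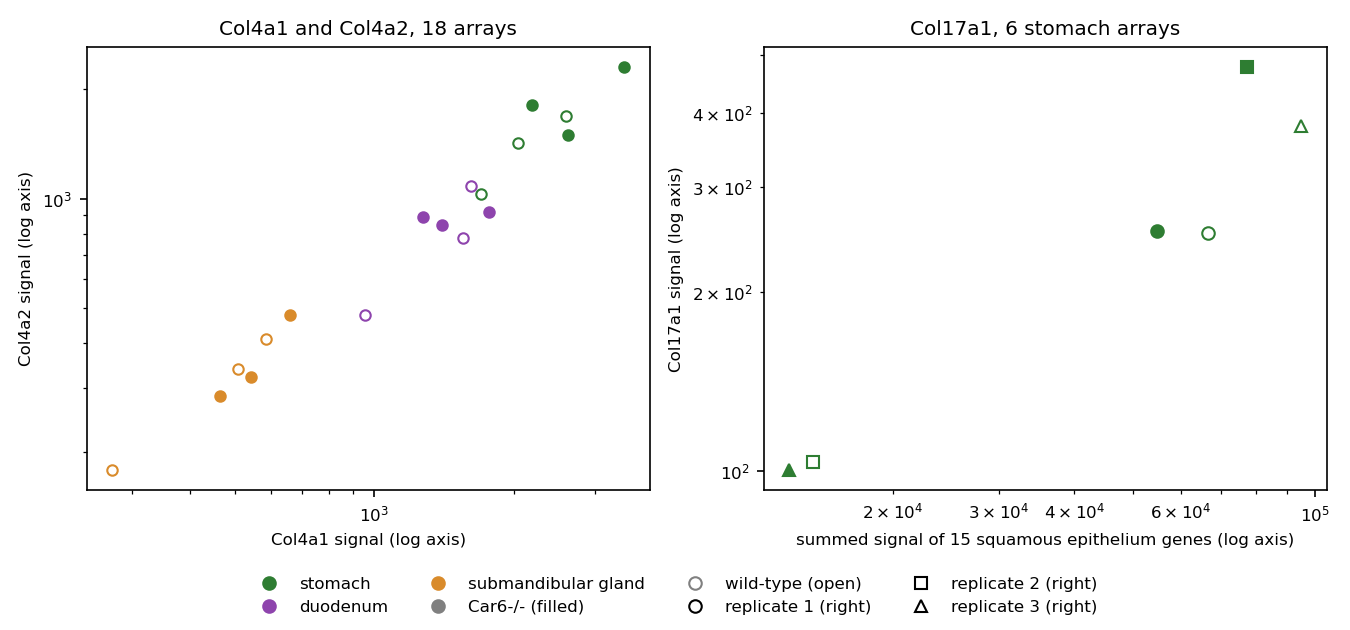
Deposited signals on log axes. Left, Col4a1 against Col4a2 on the 18 arrays, with filled points for Car6-/- and open points for wild-type mice; the lowest point is a wild-type submandibular array (271.8 and 178.6) and the highest a Car6-/- stomach array (3464 and 2303). Right, Col17a1 against the summed signal of 15 squamous epithelium genes on the 6 stomach arrays, where 2 arrays lie low on both axes.

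The first question put to the matrix genes was how they differ between wild-type tissues. In the wild-type stomach 22 of 28 tested members differed from the submandibular gland, 19 of them higher and 3 lower in the stomach, whereas 50.8% of all 9682 genes differed, 26.7% higher and 24.1% lower (limma on the 18 arrays, Benjamini-Hochberg adjusted p under 0.05). The median log2 difference of the members was 0.90, against 0.02 over all genes. Between the duodenum and the submandibular gland 17 of 28 members differed, 10 higher and 7 lower in the duodenum, against 55.1% of all genes (26.7% higher and 28.4% lower), and the members' median was 0.30. Between the stomach and the duodenum 16 of 28 differed, 15 higher and 1 lower in the stomach, against 31% of all genes (17.4% higher and 13.6% lower), with a members' median of 0.63. Calls with a fitted difference of more than 2-fold numbered 12 (25.8% of all genes), 10 (29.3%) and 8 (14.8%) in these contrasts. A group counts as undetected where the probe was detected on none of its 3 arrays, and a fitted difference from such a group has no exact size. The counts over 2-fold include such differences: Col4a5 and Col4a6 against the gland in the first contrast, and Col17a1 with an undetected duodenum in the other contrasts. These genes are not shown to differ by more than 2-fold. Col4a4, among the 7 called lower in the duodenum than in the gland, was undetected in both tissues (mean signals 65.8 and 71.0). Its call compares background values and shows no difference of the transcript. Among members detected in both tissues, 18 of 21 were called for stomach over gland (15 higher, 3 lower), 13 of 20 for duodenum over gland (8 higher, 5 lower) and 13 of 24 for stomach over duodenum (12 higher, 1 lower).

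These fits set the arrays to 1 common distribution of signals, and fewer probes were detected in the submandibular gland. With each array scaled to its own median instead, the median of all genes moved to 0.84 for stomach over submandibular gland, 0.65 for duodenum over submandibular gland and 0.16 for stomach over duodenum. The share of calls that were higher then moved to 91.7%, 88.1% and 65.4%, from 52.5%, 48.5% and 56.1%, and the members called were 20 higher and 0 lower, 16 higher and 2 lower, and 12 higher and 1 lower. All genes called were then 60.9% higher and 5.47% lower, 51.2% higher and 6.89% lower, and 17.7% higher and 9.35% lower. Several members that were lower in the gut than in the gland therefore depend on the scaling, and their values under it are given beside them. The deposited signals, which carry no scaling and so keep the brightness of each array, are given for most of the members named below.

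**Figure D2:**
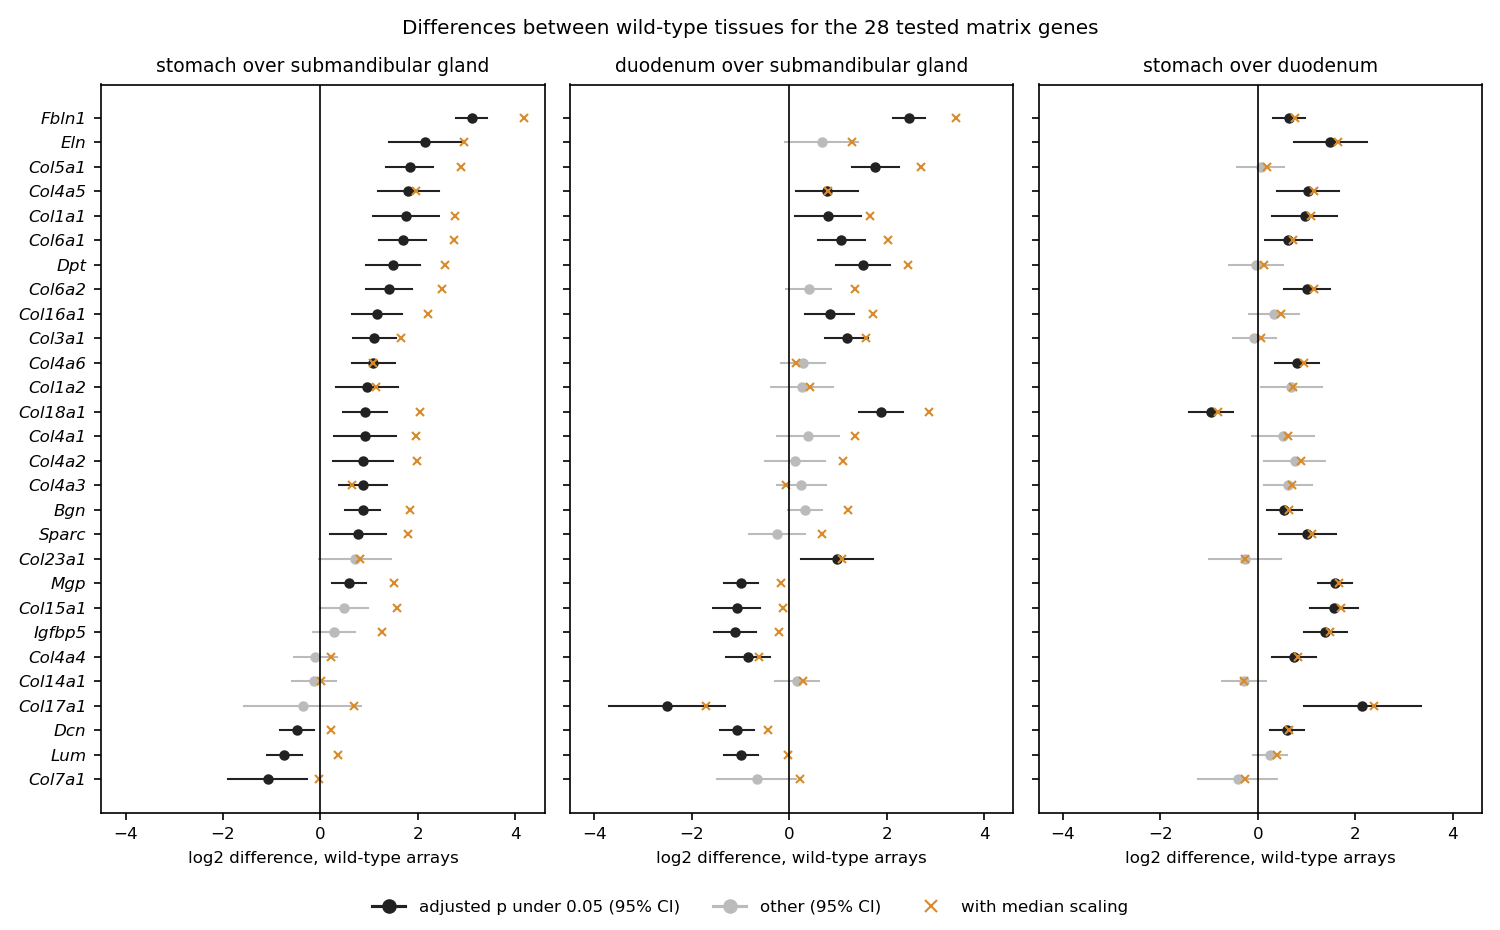
Log2 differences between wild-type tissues (3 arrays each) for the 28 tested members, with 95% confidence intervals from the fit of 18 arrays; black points passed an adjusted p of 0.05, grey points did not, and orange crosses give the same difference with median scaling. Fbln1 stands farthest to the right in both comparisons with the submandibular gland, and the crosses of the genes at the foot of the left panel, Col7a1, Lum and Dcn, lie near 0 or above it. Points of genes undetected in a tissue, such as Col4a5 and Col17a1, are fitted values and not exact sizes.

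The elastic fibre gene Fbln1 was higher in both gut tissues than in the gland. Fbln1 gave 2475, 2604 and 3844 in the wild-type stomach, 1036, 2168 and 2168 in the wild-type duodenum and 169, 121 and 211 in the wild-type submandibular gland. Every gut array exceeded every gland array, by 8.58-fold in the fit for the stomach (log2 3.10, SE 0.15, limma adjusted p = 6.85e-11) and with a log2 difference of 2.46 for the duodenum (limma adjusted p = 1.07e-09). A second Fbln1 probe (ILMN_2728985) was detected on every wild-type gut array and on no wild-type gland array. Fbln1 encodes fibulin-1, a calcium-binding glycoprotein of elastic fibres and basement membranes.

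Elastin itself (Eln), the core of elastic fibres, was higher in the stomach than in either other tissue. Eln gave 444, 427 and 399 in the wild-type stomach, 121, 207 and 187 in the wild-type duodenum and 81.5, 76.2 and 82.7 in the wild-type submandibular gland. The 3 groups did not overlap, and the gland signal was detected on 1 of 3 arrays. The stomach exceeded the submandibular gland (log2 2.15, SE 0.35, limma adjusted p = 9.77e-05) and the duodenum (log2 1.49, SE 0.35, limma adjusted p = 0.00424), while the duodenum over the submandibular gland did not pass the test (log2 0.67, SE 0.35, limma adjusted p = 0.123).

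All 4 fibrillar collagens that could be tested were higher in the stomach than in the submandibular gland, with differences from 1.11 to 1.83 on the log2 scale for the 3 that were detected in the gland. Col5a1 gave 918, 866 and 832 in the wild-type stomach, 473, 1066 and 856 in the wild-type duodenum and 144, 102 and 139.6 in the wild-type submandibular gland. Its stomach and duodenal arrays overlapped, with no call between them (log2 0.06, adjusted p = 0.877), and both lay above the gland. Col5a1 encodes a chain of collagen V, which nucleates fibrils and limits their diameter. Its differences were 1.83 for stomach over gland (SE 0.23, limma adjusted p = 5.44e-06) and 1.77 for duodenum over gland.

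Col1a1 gave 968, 720.3 and 557 in the wild-type stomach, 292, 381 and 425 in the wild-type duodenum and 135, 83.7 and 159 in the wild-type submandibular gland. Col1a1 encodes the main chain of collagen I, the bulk collagen of connective tissue, and its stomach arrays lay above all others (log2 1.75, SE 0.32, limma adjusted p = 0.000249, for stomach over gland). Col3a1 gave 181, 158 and 217 in the wild-type stomach, 129, 199.9 and 206 in the wild-type duodenum and 80.3, 67.3 and 77.7 in the wild-type submandibular gland. Col3a1, the chain of the fine reticular fibres, was detected on 1 of the 3 gland arrays, and its gut arrays overlapped, with a log2 difference of -0.07 for stomach over duodenum (95% confidence interval -0.52 to 0.37). Duodenum over gland was 1.18 (limma adjusted p = 0.000156). Col1a2, which encodes the partner chain of Col1a1, was detected on no gland array and gave 116, 145 and 125 in the wild-type stomach.

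Among the basement membrane chains 5 of 6 were called higher in the stomach than in the gland, where 3 of these 5 (Col4a3, Col4a5 and Col4a6) were undetected. Col4a3 and Col4a6 passed the filter only through stomach arrays, and Col4a5 would not have passed it without them. The count of these 3 as higher therefore carries no weight. Col4a1 and Col4a2, detected on every array, had log2 differences of 0.915 and 0.876. Col4a5 gave 214, 185 and 144 in the wild-type stomach, 86.5, 119 and 114 in the wild-type duodenum and 71.8, 56.8 and 67.6 in the wild-type submandibular gland. Col4a5 was detected on all 3 stomach arrays, 2 of 3 duodenal arrays and no gland array. Against an undetected group the fold is a lower bound, a ratio of normalized means in which each undetected value counts as no less than the dimmest detected signal of its array, so Col4a5 was at least 1.27-fold higher in the stomach than in the gland (limma adjusted p = 0.000101). It also exceeded the duodenum (log2 1.03, SE 0.30, limma adjusted p = 0.0144), a call lost without wild-type stomach replicate 1 (log2 0.84) or replicate 2 (log2 0.93). Col4a3 and Col4a4, which with Col4a5 form the collagen IV of specialised basement membranes such as the kidney filter, were detected on 4 and 3 of all 18 arrays, and Col4a6 on 5, and all these detections were in the stomach.

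Collagen VI, which forms beaded filaments around cells, was represented by 2 chains, and both were higher in the stomach than in the gland. Col6a1 gave 3839, 2682 and 2565 in the wild-type stomach, 1236, 2223 and 2089 in the wild-type duodenum and 441, 253 and 457 in the wild-type submandibular gland. Col6a2 gave 986, 765 and 1019 in the wild-type stomach, 371, 494 and 432 in the wild-type duodenum and 180.2, 129 and 171 in the wild-type submandibular gland. For both genes every gland array lay below every gut array. Stomach over gland was 1.69 for Col6a1 (SE 0.23, limma adjusted p = 1.36e-05) and 1.41 for Col6a2 (adjusted p = 6.31e-05), and a second Col6a1 probe gave 1.08 (adjusted p = 0.000122), while probe ILMN_2589422 was undetected in the gland. Duodenum over gland passed for Col6a1 (log2 1.07, SE 0.23, limma adjusted p = 0.000874) and not for Col6a2 (log2 0.40, SE 0.22, limma adjusted p = 0.14).

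The multiplexins, collagens of the zone around basement membranes, split between the gut tissues. Col15a1 gave 509, 462 and 628 in the wild-type stomach, 158, 209.6 and 214 in the wild-type duodenum and 187, 116 and 210.1 in the wild-type submandibular gland. Col18a1 gave 1063, 925 and 1438 in the wild-type stomach, 1101, 2921 and 2107 in the wild-type duodenum and 249.8, 183 and 294 in the wild-type submandibular gland. The stomach held the most Col15a1 signal and the duodenum the most Col18a1 signal, although Col18a1 overlapped between the gut tissues in 1 duodenal array. In the fit Col15a1 was higher in the stomach than in the duodenum (log2 1.56, SE 0.23, limma adjusted p = 7.00e-05), whereas Col18a1, whose C-terminal fragment is endostatin, was the only member called lower in the stomach than in the duodenum (log2 -0.96, SE 0.21, limma adjusted p = 0.0025). A second Col18a1 probe (ILMN_2937542) gave -0.23 for that difference (adjusted p = 0.5), so the probes disagree on it. Over the gland the duodenum had more Col18a1 (log2 1.88, limma adjusted p = 1.53e-06), and the second probe was undetected in the gland. Col15a1 was lower in the duodenum than in the gland by -1.08 (adjusted p = 0.000839), which was -0.14 with no call under median scaling.

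Col17a1, the transmembrane collagen of hemidesmosomes that fixes basal keratinocytes to their basement membrane, was detected in the stomach and the gland and not in the duodenum. Col17a1 gave 251, 104 and 380.2 in the wild-type stomach, 75.1, 74.5 and 74.5 in the wild-type duodenum and 127, 95.5 and 127 in the wild-type submandibular gland. On normalized signals the stomach lay at least 1.90-fold above the duodenum (limma adjusted p = 0.00837), a call lost with array weights (adjusted p = 0.0543). The duodenum was called lower than the gland (limma adjusted p = 0.00136, and 0.0174 with median scaling), with no fold given since the scaling sets its size. Probe ILMN_1216228, undetected in the wild-type duodenum and gland, passed in neither contrast (limma adjusted p = 0.0754 and 0.11). Probe ILMN_2879995 passed in both (limma adjusted p = 0.0159 and 0.0064). Within the stomach the Col17a1 signal ranged widely in both genotypes, 253, 477 and 100.4 on Car6-/- arrays and 251, 104 and 380.2 on wild-type arrays. The summed signal of 15 squamous epithelium genes, the lining of the mouse forestomach, was 54890, 77357 and 13499 on the Car6-/- stomach arrays and 66635, 14747 and 95012 on the wild-type stomach arrays. The arrays low in Col17a1, Car6-/- replicate 3 and wild-type replicate 2, were those low in the squamous genes, and the part of forestomach in the Col17a1 differences was not tested. Col7a1, the anchoring fibril collagen of the same junction, gave 188, 146 and 158 in the wild-type stomach, 235, 123 and 218 in the wild-type duodenum and 139, 103 and 159 in the wild-type submandibular gland, which overlap. Its fitted difference of -1.08 for stomach over gland (adjusted p = 0.0265) was -0.03 under median scaling, and the call was also lost without any of 4 arrays (wild-type stomach replicate 2 or 3, wild-type submandibular replicate 1 or 3; log2 -1.08 to -0.97).

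The small leucine-rich proteoglycans bind collagen fibrils and control their spacing. Bgn gave 4613, 3620 and 5447 in the wild-type stomach, 1715, 3694 and 3650 in the wild-type duodenum and 1004, 654 and 1409 in the wild-type submandibular gland. Biglycan (Bgn) was higher in the stomach than in the gland (log2 0.87, SE 0.17, limma adjusted p = 0.000424). Lum gave 636, 602 and 627 in the wild-type stomach, 389, 530.2 and 524 in the wild-type duodenum and 380.3, 299 and 471 in the wild-type submandibular gland. Dcn gave 5015, 5598 and 11085 in the wild-type stomach, 3480, 3834 and 5699 in the wild-type duodenum and 4141, 3756 and 5231 in the wild-type submandibular gland. Deposited signals of lumican (Lum) were highest in the stomach, and those of decorin (Dcn) overlapped among all 3 tissues. The fit with a common distribution placed Lum lower in the stomach than in the gland (log2 -0.74, SE 0.17, limma adjusted p = 0.00172), a direction that turned to 0.35 under median scaling, and likewise Dcn (log2 -0.48, SE 0.17, limma adjusted p = 0.0241), which turned to 0.22. Duodenum over gland was -0.99 for Lum (adjusted p = 0.000118) and -1.07 for Dcn (adjusted p = 4.51e-05), which were -0.03 and -0.43 with no call under median scaling. The Dcn call for stomach over gland was lost when any array but wild-type stomach replicate 3 was left out (log2 -0.49 to -0.40).

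Matrix glycoproteins divided in the same contrasts. Dpt gave 386, 441 and 1018 in the wild-type stomach, 389.9, 559 and 579.9 in the wild-type duodenum and 105, 109.6 and 108 in the wild-type submandibular gland. Dermatopontin (Dpt), which binds decorin and speeds collagen fibril assembly, was higher in the stomach (log2 1.48, SE 0.26, limma adjusted p = 0.000188) and the duodenum (log2 1.52, SE 0.26, limma adjusted p = 0.000124) than in the gland. Mgp gave 4512, 4198 and 7413 in the wild-type stomach, 1390, 1648 and 1881 in the wild-type duodenum and 1406, 1149 and 1667 in the wild-type submandibular gland. Igfbp5 gave 3133, 2563 and 3132 in the wild-type stomach, 752, 1275 and 1250 in the wild-type duodenum and 928, 572 and 1556 in the wild-type submandibular gland. Matrix Gla protein (Mgp), an inhibitor of calcification, and Igfbp5, a binding protein of insulin-like growth factors that is held in the matrix, were both higher in the stomach than in the duodenum (log2 1.58, SE 0.17, limma adjusted p = 1.84e-06, and log2 1.39, SE 0.21, limma adjusted p = 8.00e-05). Their deposited signals overlapped between duodenum and gland, where the fitted differences of -0.99 and -1.11 were -0.16 and -0.21 with no call under median scaling. Sparc, which helps collagen assemble outside the cell, had probes that disagreed for stomach over gland (0.77, adjusted p = 0.0276, for the brighter, -0.07, adjusted p = 0.86, for the other).

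Other matrix genes and cell markers were read in the same contrasts. Of 22 tested genes of elastic fibres, other proteoglycans and matricellular proteins, 18 were higher and 2 lower in the stomach than in the gland, 10 and 2 in the duodenum than in the gland, and 13 and 1 in the stomach than in the duodenum. Of 10 tested laminins and other basement membrane proteins the same counts were 6 and 1, 3 and 4, and 4 and 0. The shares of all genes in these contrasts were 26.7% higher and 24.1% lower, 26.7% and 28.4%, and 17.4% and 13.6%. With median scaling the list counts were 20 and 0, 14 and 0, and 13 and 1 for the elastic fibre, proteoglycan and matricellular genes and 8 and 1, 5 and 1, and 5 and 0 for the basement membrane genes. All genes were then called 60.9% higher and 5.47% lower, 51.2% and 6.89%, and 17.7% and 9.35%. For duodenum over gland the counts of the basement membrane list lay near the shares of all genes under either scaling. The summed signal of the basement membrane list was 5925 to 6616 in the wild-type stomach and 3039 to 5167 in the wild-type duodenum, against 1293 to 1906 in the wild-type gland. Smooth muscle genes went with the gut: 13 of 14 tested were higher in the stomach than in the gland (list median 2.03) and 13 of 14 in the duodenum (1.73), and the summed signal of the list was 46691 to 78516 in the wild-type stomach and 34118 to 65653 in the wild-type duodenum, against 7370 to 9101 in the wild-type gland. Of 16 fibroblast markers 4 were higher and 5 lower in the stomach than in the gland and 1 higher and 9 lower in the duodenum, counts that were 8 and 1, and 4 and 2, with median scaling. Their summed signal was 5685 to 7750 in the wild-type stomach and 3013 to 4497 in the wild-type duodenum, against 2656 to 3886 in the wild-type gland, so the stomach lay above the gland and the duodenum overlapped it. The part of smooth muscle or fibroblasts in the tissue differences of the matrix genes was not tested. Nor was the part of the gastric gland signal on the duodenal arrays tested.

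In Car6-/- mice, which are other animals, the same contrasts called 20 of 28 members for stomach over gland (48.8% of all genes), 16 for duodenum over gland (58.8%) and 22 for stomach over duodenum (46.6%). Calls in the same direction in both genotypes numbered 20 of the 22 wild-type calls (90.9%, against 80% for all genes), 14 of 17 (82.4%, against 83.7%) and 14 of 16 (87.5%, against 88.3%). Col4a4 counts among the 14 of 17, although it was undetected in the duodenum and the gland of both genotypes. Fbln1 was again far above the gland, by 2.72 in the stomach and 2.48 in the duodenum. All 22 members called between stomach and duodenum in Car6-/- mice were higher in the stomach (25.7% of all genes), 8 of them uncalled in wild-type mice: Col4a1, Col4a2, Col4a3, Col1a2, Col5a1, Col16a1, Lum and Dpt. Among the 22, Col4a3, Col4a4, Col4a5, Col4a6 and Col17a1 were undetected in the Car6-/- duodenum, so their differences have no exact size. Col4a3, Col4a4 and Col4a6 passed the filter only through stomach arrays, so their direction carries no weight.

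The genotype comparison in the duodenum had the most members of low unadjusted p. No member passed the adjusted threshold in limma, against 0.0117% of the 8523 genes tested, which was 1 gene. An unadjusted p under 0.05 was reached by 8 of 23 members, all of them lower in Car6-/- mice (34.8%), against 22.8% of all genes and 11.4% in the lower direction. In the fit 21 of 23 members had lower values in Car6-/- mice (91.3%), against 47.8% of all genes, with a median log2 fold change of -0.35 against 0.02 for all genes. With median scaling the median of all genes was 0.22 and that of the members -0.13, 14 of 23 lower, so the distance between them stayed near the same size while the signs of 7 members (Col4a1, Col4a2, Col6a1, Col6a2, Bgn, Fbln1 and Col15a1) turned.

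Dpt led. Its deposited signal was 237, 317 and 366 in Car6-/- mice, against 389.9, 559 and 579.9 in wild-type mice. The groups did not overlap, although the highest Car6-/- array came close to the dimmest wild-type array, and normalized log2 values were 7.74, 7.90 and 7.91 in Car6-/- mice and 9.20, 8.94 and 9.03 in wild-type mice. Mean signals were 307 ± 64.7 in Car6-/- and 509.5 ± 104 in wild-type mice (SD, n = 3 each), a 2.31-fold lower level in the fit (log2 -1.21, 95% confidence interval -1.52 to -0.90, SE 0.13, limma adjusted p = 0.0716). Igfbp5 signals were 558, 711 and 698 in Car6-/- mice, against 752, 1275 and 1250 in wild-type mice. These groups did not overlap either, with normalized values of 9.16, 9.20 and 8.90 in Car6-/- and 10.22, 10.22 and 10.20 in wild-type mice (log2 -1.13, SE 0.13, limma adjusted p = 0.0716).

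Proteoglycans and fibril collagens stood next. Lum gave 302, 383 and 406 in Car6-/- mice, against 389, 530.2 and 524 in wild-type mice. Dcn gave 2509, 3210 and 4990 in Car6-/- mice, against 3480, 3834 and 5699 in wild-type mice. Col3a1 gave 124, 149 and 152 in Car6-/- mice, against 129, 199.9 and 206 in wild-type mice. All 3 overlapped as deposited, with wild-type replicate 1 the lowest wild-type array for each, and none overlapped after normalization. Their fitted values were log2 -0.82, SE 0.14, limma adjusted p = 0.114 for Lum, log2 -0.67, SE 0.19, limma adjusted p = 0.143 for Dcn and log2 -0.74, SE 0.13, limma adjusted p = 0.115 for Col3a1. A second Dcn probe gave -0.85.

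The remaining members with an unadjusted p under 0.05 were Mgp, Col5a1 and Col16a1. Mgp gave 1165, 1464 and 1492 in Car6-/- mice, against 1390, 1648 and 1881 in wild-type mice (log2 -0.63, SE 0.17, limma adjusted p = 0.136). Col5a1 gave 586, 698 and 546 in Car6-/- mice, against 473, 1066 and 856 in wild-type mice (log2 -0.72, SE 0.23, limma adjusted p = 0.149). Col16a1, which links fibrils to other matrix, gave 272, 352 and 309 in Car6-/- mice, against 213, 516 and 410.4 in wild-type mice (log2 -0.57, SE 0.21, limma adjusted p = 0.184). The deposited groups overlapped for each, with wild-type replicate 1 below the Car6-/- arrays for Col5a1 and Col16a1.

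By role, the medians in the duodenum were -0.88 for the 4 matrix glycoproteins, -0.66 for the 3 small proteoglycans and -0.54 for the 4 fibrillar collagens. They were -0.16 for the 2 tested collagen IV chains, -0.21 for collagen VI and -0.40 for the multiplexins. Col14a1, a collagen on the surface of fibrils, and Col23a1, a transmembrane collagen, were the 2 members with higher values in Car6-/- mice (log2 0.36, adjusted p = 0.235, and log2 0.20, adjusted p = 0.819). Col14a1 was detected on 3 of 3 Car6-/- and 1 of 3 wild-type duodenal arrays, and Col23a1 on 3 and 2. Neither would have passed the filter without the Car6-/- arrays, where they are higher, so their direction carries no weight. Groups did not overlap after normalization for 10 members in the lower direction (43.5%, against 13.9% of all genes). In the higher direction this held for 1, Col14a1 (4.35%, against 15.8%).

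**Figure D3:**
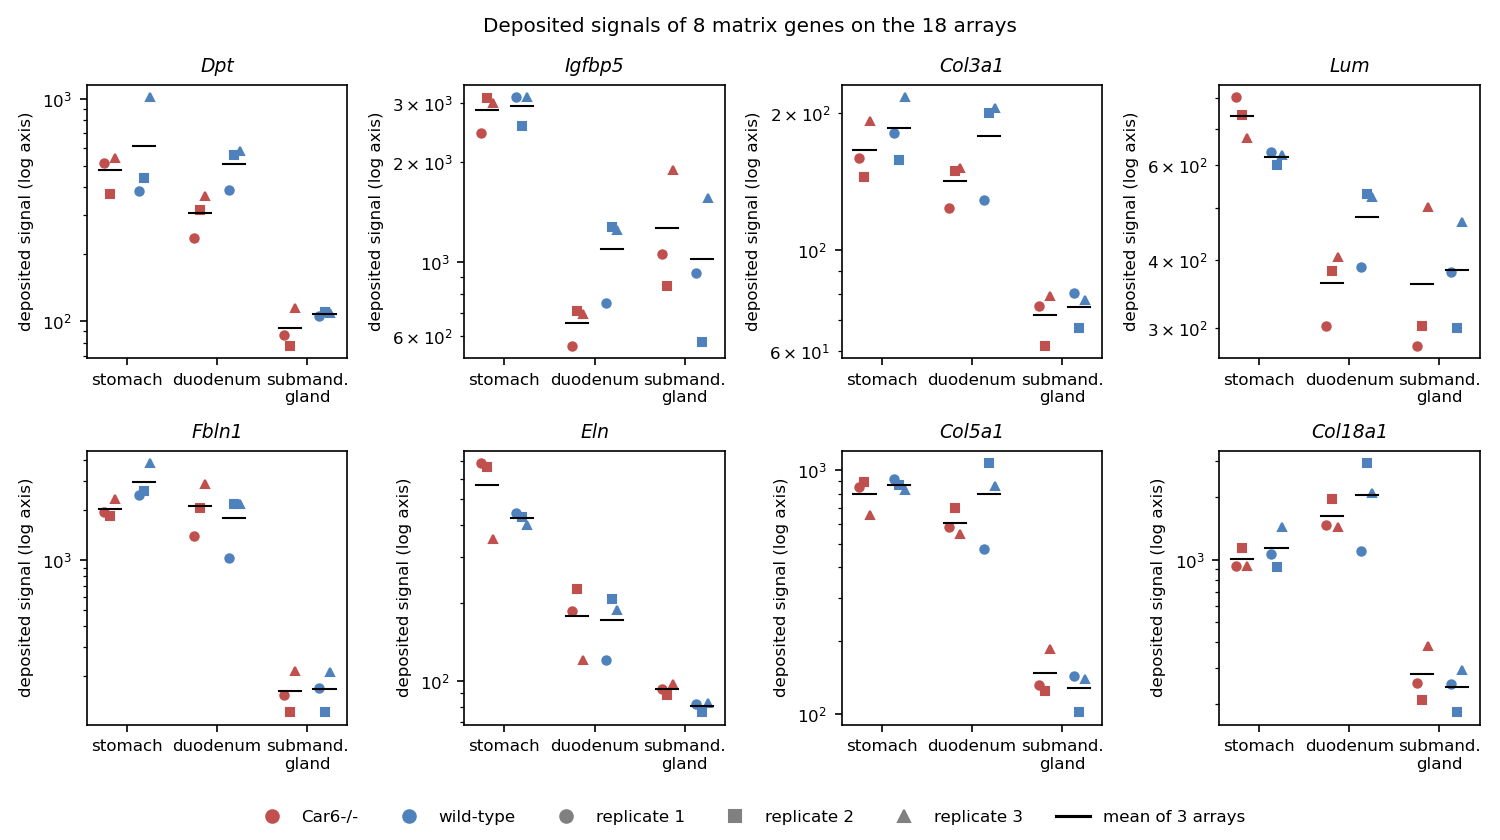
Deposited signals (log axes) of 8 members on the 18 arrays, Car6-/- in red and wild-type in blue, with a marker shape for each replicate and a bar at the mean of 3 arrays. In the duodenum the red points of Dpt and Igfbp5 lie below all blue points, while in the submandibular gland Fbln1, Eln, Col5a1 and Col18a1 lie below their gut signals in both genotypes.

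Whether the duodenal differences pass the threshold depended on the processing of the signals, the model of error and the arrays used. A fit of all 18 arrays, which shares its error estimate between tissues, called 5 members in the duodenum, all lower in Car6-/- mice (Igfbp5, Lum, Dpt, Dcn and Mgp, limma adjusted p = 0.00954 to 0.0333), where it called 6.23% of all genes, with 3.46% called in the lower direction. Array weights called 5 (Dpt, Igfbp5, Lum, Col3a1 and Dcn, adjusted p = 0.0149 to 0.0397), where they called 9.95% of all genes and 5.19% in the lower direction. Leaving out wild-type duodenum replicate 3 called Dpt and Igfbp5 (log2 -1.22 and -1.13), with 0.81% of all genes called and 0.235% in the lower direction.

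Genes around the members were described in the same comparison, and none of any list passed the threshold in the duodenum. Of all genes 47.8% had lower values in Car6-/- mice. Of 15 tested genes of collagen synthesis and crosslinking 10 had lower values in Car6-/- mice, with a median of -0.31, and the 4 of smallest p were the procollagen C-proteinase enhancer Pcolce (-0.69), the crosslinking oxidase Loxl1 (-0.58), Mia3 (-0.91), which helps load procollagen for export, and the vesicle coat protein Sec23a (1.03). Of 14 genes of matrix degradation and its inhibitors 11 were lower (median -0.40), and the 4 of smallest p were the urokinase receptor Plaur (-1.01) and the metalloproteinase inhibitors Timp1 (-1.09), Timp2 (-0.71) and Timp3 (-0.54). Other elastic fibre, proteoglycan and matricellular genes were lower in 15 of 21 (median -0.37), with the fibulin Fbln2 at -1.28, and matrix receptors in 14 of 16 (median -0.28). Laminins and other basement membrane proteins were lower in 6 of 9 (median -0.08), with the laminin chain Lamb3 at -1.06 and the proteoglycan Agrn at 0.33, and the TGF-beta list in 8 of 13 (median -0.06).

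Markers of the tissue's makeup differed between the same arrays. Smooth muscle genes had lower values in 12 of 12 (median -0.55), with summed signals of 40314, 43248 and 46651 on Car6-/- and 34118, 51715 and 65653 on wild-type arrays. Gastric gland genes were lower in 10 of 10 (median -1.97), with sums of 123570, 121461 and 37537 on Car6-/- and 153557, 160788 and 177899 on wild-type arrays, and the proton pump genes Atp4a and Atp4b, which define parietal cells, were detected on no Car6-/- duodenal array. Enterocyte genes were higher in 9 of 9 (median 1.06), with sums of 53353, 77793 and 109752 on Car6-/- and 13952, 47592 and 55631 on wild-type arrays. In the fit of all 18 arrays 5 of these enterocyte genes were called, against 6.23% of all genes. Fibroblast markers were lower in 7 of 13 (median -0.03), and endothelial markers in 10 of 12 (median -0.10). The part of any of these tissues in the lower matrix values was not tested.

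In the stomach no member passed the threshold, and neither did any of the 8556 genes (0% called). An unadjusted p under 0.05 was reached by 3 of 27 members (11.1%), against 2.9% of all genes, and the 27 had a median of 0.09 against -0.02, with 17 higher (47.4% of all genes) and 10 lower. Fbln1 gave 1963, 1840 and 2331 in Car6-/- mice, against 2475, 2604 and 3844 in wild-type mice, which do not overlap (log2 -0.48, SE 0.14, limma adjusted p = 1), but the second Fbln1 probe gave -0.05. Col4a5 gave 295, 310.4 and 224 in Car6-/- mice, against 214, 185 and 144 in wild-type mice (log2 0.77, SE 0.32, limma adjusted p = 1). Col1a1 gave 1094, 1704 and 1128 in Car6-/- mice, against 968, 720.3 and 557 in wild-type mice (log2 0.88, SE 0.37, limma adjusted p = 1). The deposited Car6-/- values of both lay above all wild-type values.

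The next members by p were on both sides. Lum gave 804, 745 and 673 in Car6-/- mice, against 636, 602 and 627 in wild-type mice (log2 0.29, SE 0.20, limma adjusted p = 1). Mgp gave 6075, 6204 and 6535 in Car6-/- mice, against 4512, 4198 and 7413 in wild-type mice (log2 0.33, SE 0.16, limma adjusted p = 1). Sparc gave 5025, 4063 and 2916 in Car6-/- mice, against 2979, 2436 and 3648 in wild-type mice (log2 0.44, SE 0.28, limma adjusted p = 1). Lum values of Car6-/- stomachs lay above all wild-type values as deposited, and the other pairs of groups overlapped. Col4a2 (log2 0.50) and Col3a1 (log2 -0.25) completed the 8 smallest p. Col3a1 gave 159, 145 and 193 in Car6-/- mice, against 181, 158 and 217 in wild-type mice, which overlap. In the fit the 6 collagen IV chains had a median of 0.39, 4 higher and 2 lower. Wild-type stomach replicate 3, the array high in pancreatic genes, had the lowest signals of Col4a1, Col4a2, Col4a3, Col4a5 and Col1a1 among the 6 stomach arrays, and its sum of skeletal muscle genes was 27736, where the others ran from 1467 to 20113. The part of that array's makeup was not tested, and leaving out single arrays gave a members' median of -0.02 to 0.22. Laminins and other basement membrane genes were higher in 6 of 9 (median 0.17), with the nidogens Nid1 and Nid2, which join laminin to collagen IV, at 0.45 and 0.44.

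In the submandibular gland, the tissue where Car6 was detected in wild-type mice, no member passed the threshold, against 0.099% of the 7074 genes. An unadjusted p under 0.05 was reached by 5 of 20 members (25%), against 9.64% of all genes, and 14 of 20 had higher values in Car6-/- mice (70%, against 51.9%), with a median of 0.17 against 0.01. Eln gave 93.2, 88.6 and 98.1 in Car6-/- mice, against 81.5, 76.2 and 82.7 in wild-type mice, which do not overlap (log2 0.49, SE 0.14, limma adjusted p = 0.49). Dpt gave 87.1, 77.5 and 114 in Car6-/- mice, against 105, 109.6 and 108 in wild-type mice, which overlap in 1 Car6-/- array (log2 -0.49, SE 0.20, limma adjusted p = 0.516). Col7a1 gave 166, 128 and 259.9 in Car6-/- mice, against 139, 103 and 159 in wild-type mice (log2 0.53, SE 0.17, limma adjusted p = 0.499). Eln was detected on 3 of 3 Car6-/- and 1 of 3 wild-type gland arrays, so its signal lay near the limit of detection. Without the Car6-/- arrays, where it is higher, Eln would not have passed the filter, so its direction carries no weight. It counts among the 5 members of low unadjusted p and the 14 with higher values.

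Dcn gave 3224, 2969 and 4478 in Car6-/- mice, against 4141, 3756 and 5231 in wild-type mice (log2 -0.30, SE 0.11, limma adjusted p = 0.499), and a second Dcn probe gave -0.44. Col1a1 gave 161, 140.3 and 173 in Car6-/- mice, against 135, 83.7 and 159 in wild-type mice (log2 0.56, SE 0.24, limma adjusted p = 0.516). Deposited values of both overlapped. The other members among the 8 smallest p, Col4a1 (log2 0.30), Col5a1 (log2 0.22) and Col15a1 (log2 0.26), had higher values in Car6-/- glands in the fit. Col5a1 gave 132, 124 and 185 in Car6-/- mice, against 144, 102 and 139.6 in wild-type mice. Col15a1 gave 186, 169 and 231 in Car6-/- mice, against 187, 116 and 210.1 in wild-type mice. Deposited signals of Col5a1 and Col15a1 overlapped. Adipocyte genes were lower in 6 of 6 (median -0.95), with sums of 1477, 1179 and 3028 on Car6-/- and 6291, 1795 and 2381 on wild-type arrays, and macrophage and dendritic cell genes in 11 of 11 (median -0.30). Fibroblast markers were lower in 8 of 11 (median -0.02), and the part of these cell types was not tested.

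**Figure D4:**
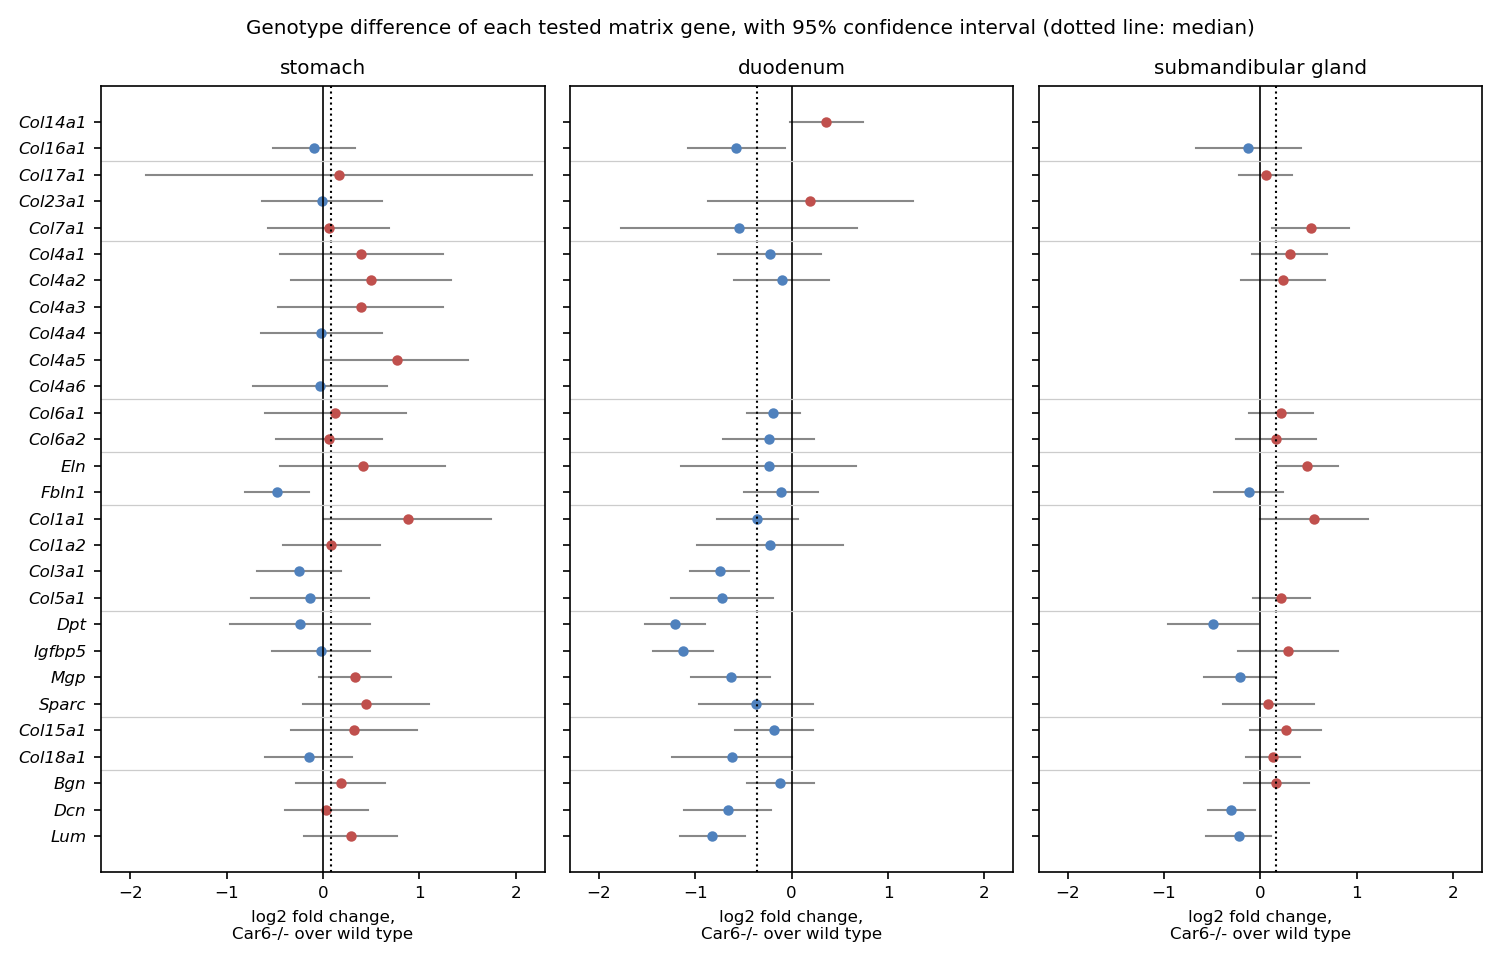
Log2 fold change, Car6-/- over wild type, of every tested member in each tissue with its 95% confidence interval (3 arrays against 3), red where higher and blue where lower in Car6-/- mice, grouped by role between the grey lines; the dotted line is the members' median. In the duodenum the median lies at -0.35 and the intervals of Dpt and Igfbp5 lie farthest from 0, while the stomach and the gland have medians of 0.09 and 0.17.

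Whether the genotype difference itself differed between tissues was tested over all 18 arrays, and no member passed in any of the 3 contrasts. The shares of all genes that passed were 0.062% for stomach minus gland, 0.207% for duodenum minus gland and 0.0207% for stomach minus duodenum. An unadjusted p under 0.05 was reached by 1 of 28 members (3.57%) against 4.62% of all genes, by 5 (17.9%) against 14.9%, and by 8 (28.6%) against 12.8%. All 5 of duodenum minus gland were negative (8.35% of all genes), and all 8 of stomach minus duodenum were positive (6.28%). Igfbp5 had the smallest p, with a genotype difference of -1.13 in the duodenum and 0.25 in the gland (difference of the differences -1.38, SE 0.29, limma adjusted p = 0.0602). For stomach minus duodenum Lum led (1.08, SE 0.24, limma adjusted p = 0.131), with 0.29 in the stomach and -0.79 in the duodenum. Both contrasts use the duodenal arrays, so they share data. With array weights 1 and 5 members passed in these contrasts (5.12% and 4.95% of all genes), and leaving out 1 array at a time gave at most 1 (duodenum minus gland without Car6-/- duodenum replicate 1, wild-type duodenum replicate 3 or wild-type submandibular replicate 3, and stomach minus duodenum without wild-type duodenum replicate 3).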

How the data were processed

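RNA of 3 tissues from Car6-/- and wild-type mice was labelled and hybridised to 18 Illumina bead arrays, per the labels. The authors deposited a table of signal intensity per probe and array, on a linear scale and by its name not normalized, with a detection p-value beside each intensity per the file headers. The authors also deposited log2 values, and the sorted values of each array differed by at most 0.0496 from a quantile normalization of the 6 arrays of its tissue. The sources used here do not name the software of these steps.

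From the intensities, the arrays of a tissue (genotype) or all 18 arrays (tissues, interactions) went through neqc, which corrects background and normalizes by quantiles (limma 3.58.1, R 4.3.3, offset 16, with negative controls inferred from the detection p-values). Probes with a detection p under 0.01 on at least 3 arrays of the fit were kept, and a gene was read from its kept probe with the highest mean. Fits used lmFit and eBayes, two-sided, with Benjamini-Hochberg adjustment over all genes and a threshold of 0.05, and SE is that of the fit. Figures and promoter searches used Python 3.11.15. The steps were tested on simulated data. The design text gives 3 mice of each genotype for all tissues, so arrays of different tissues probably share mice, and the fit of 18 arrays treated the arrays as independent. Probe names follow the platform annotation, updated through gene identifiers: 23978 probes had a symbol and 1719 had none. The number of arrays, 3 per group, limits the precision.

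Members and lists were chosen with earlier results of these data known. Values are given for Car6, for the 8 members of smallest p in each genotype comparison and for the 6 largest differences past the threshold in each direction of a tissue contrast. Other members are given by role, by counts or as examples chosen after their values were seen, and up to 4 genes of smallest p were eligible from each list. Same-numbered arrays deviated together in the submandibular gland (correlations across genes 0.266, 0.520 and 0.235), as the data show and no label states.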

Additional observations from a re-analysis of the deposited data

How the results depend on the processing

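The replicate number as a block called 5 members in the duodenum (969 of all genes), 0 in the stomach and 0 in the submandibular gland, and it changed no other call. Same-numbered arrays did not all deviate together in the duodenum (correlations 0.485, 0.087 and 0.440, where Car6-/- replicate 2 did not correlate best with its own number) or the stomach (-0.311, -0.258 and -0.295). Duodenal members called numbered 2 without background correction (5 genes), 2 with the authors' deposited log2 values (5 genes), 5 with array weights (848 genes), 5 in the fit of all 18 arrays (603 genes) and 4 with a term for the replicate 3 arrays (420 genes). The duodenal median was -0.13 with median scaling, -0.15 without a filter, -0.18 with array weights and -0.21 without both replicate 3 arrays, and the submandibular median 0.26 with median scaling and 0.07 without a filter. The cause of these shifts was not tested. Requiring a fitted difference of more than 2-fold left 12 members for stomach over gland, 10 for duodenum over gland and 8 for stomach over duodenum. Each count includes members undetected in a tissue of the contrast, whose differences have no exact size. Median scaling reversed Lum (0.35) and Dcn (0.22) for stomach over gland. With array weights 1 member passed for duodenum minus gland and 5 for stomach minus duodenum, although the estimate of those weights stopped before convergence in the fit of 18 arrays, as it did in the stomach.

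Leaving out single arrays gave 0 to 2 called in the duodenum (median -0.48 to -0.22), 0 to 0 in the stomach (-0.02 to 0.22) and 0 to 0 in the submandibular gland (0.10 to 0.20). It gave 17 to 21 for stomach over gland, 14 to 18 for duodenum over gland and 11 to 19 for stomach over duodenum, and for the interactions 0 to 0, 0 to 1 and 0 to 1. Of the values of named members under all alternatives, 799 kept direction and side of the threshold, 25 passed it newly, 26 no longer passed and 2 reversed. The term for replicate 3 and the fits without both replicate 1 or 3 arrays were chosen after seeing the data. A block for the BeadChip was not run, since the headers name no chips.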
